A study of Mus musculus with 41 samples.

Results

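The genes of ferroptosis defense, cystine import, and iron handling were examined in mouse mesothelioma cells and tumors. The set held 10 genes of the 27197 in the RNA count table, chosen by name: Slc7a11 and Slc3a2 (cystine import), Gclc and Gclm (glutathione synthesis), Gpx4 (repair of lipid peroxides), Acsl4 (lipid substrates), Tfrc, Fth1, and Hmox1 (iron), and Nfe2l2 (transcriptional control). Tumors were induced in mice of mixed background (FVB, Bl6, 129Ola) by injecting an adenovirus with Cre under the CMV promoter into the pleural space. That promoter is active in many cell types. The mice were young adults and received cyclosporine A in their drinking water around the injection. BNC cells lack Bap1, Nf2, and Cdkn2ab (Bap1-/-;Nf2-/-;Cdkn2ab-/-), and NC cells lack Nf2 and Cdkn2ab (Nf2-/-;Cdkn2ab-/-), so both genotypes carry the Nf2 and Cdkn2ab losses. Messenger RNA was read in 3 BNC lines (JB81, JB91, and JB97), 3 NC lines (JB84, JB87, and JB93), and 9 primary tumors whose genotype could not be matched to a library. The lines grew out of chopped tumor in medium with serum and an insulin-transferrin-selenium supplement, and the sources used here do not tie each line to an animal. P-values therefore measure only the spread between these libraries. They count the near-identical lines described below as separate, so that spread is partly one within a close pair.

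Ferroptosis is an iron-dependent form of cell death driven by peroxidation of membrane lipids. Cells hold it back by importing cystine through the transporter made of SLC7A11 and SLC3A2, turning it into glutathione with glutamate-cysteine ligase (the catalytic subunit GCLC and the modifier subunit GCLM), and using glutathione in GPX4 to reduce lipid peroxides. ACSL4 loads membranes with the polyunsaturated fatty acids that are oxidized, TFRC brings iron in, ferritin (FTH1 and FTL1) stores it, and HMOX1 releases it from heme. NRF2, the product of Nfe2l2, turns on many of these genes when KEAP1 lets it go. BAP1 is known as a repressor of Slc7a11, and loss of NF2 is known to raise sensitivity to ferroptosis through YAP.

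Total counts ranged from 12377675 to 23936922 in the lines and from 8158740 to 21851974 in the tumors, and each member had at least 309 counts in every line. JB81 and JB91 were close to identical (Pearson r of log2 CPM 0.997 and biological coefficient of variation 0.0386 over 12376 genes), and so were JB84 and JB93 (r = 0.995, coefficient 0.0578). This coefficient was 0.469 to 0.516 for the remaining pairs of the same genotype and 0.455 for JB97 with JB87, which are of different genotypes. Counts of the close lines still differed by more than sampling noise (mean chi-square per gene 16.5 over 10471 genes and 24.7 over 10492). Each was kept as a library of its own. Such an excess cannot tell separate lines from repeat libraries of the same line. Whether the lines of a close pair have the same origin was not tested. The members differed between the 2 lines of a close pair by ratios of 0.927 to 1.11 for JB81 over JB91 and 0.851 to 1.25 for JB84 over JB93. The 6 lines thus held 2 separate profiles per genotype, and the counts of calls are also given with the close lines summed. Bap1 was read at 38.0 to 44.1 CPM (counts scaled to library size with TMM factors, here over the 6 lines) in BNC and 60.6 to 64.3 CPM in NC lines, a log2 fold change of -0.57 (SE 0.13, adjusted p = 0.039); its deletion leaves other exons that are still counted. Nf2 reads remained in every line (88.3 to 123 CPM), whereas Cdkn2a stayed at or under 0.567 CPM and Cdkn2b at or under 0.0515 CPM.

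The lines were labelled mesothelioma cells, and their mesothelial markers differed. Over 9 markers, the summed level on the 15-library scale was 126 to 665 CPM in BNC and 2154 to 3014 CPM in NC lines. On the 6-line scale, Msln in JB81 and JB91 (0.221 and 0.442 CPM) and Krt18 (0 and 0.0442 CPM there) were at or near 0, JB97 had 230 CPM of Msln, and the NC lines 901 to 2151 CPM. Wt1 was present in all 6 lines (76.9 to 132 CPM), and Calb2 was at 0 in all. Krt8 and Krt18 passed the 0.05 threshold, both lower in BNC lines (adjusted p = 0.046 and 0.019). Fibroblast markers ran the other way, with a summed level of 7661 to 14048 CPM in BNC and 1167 to 5883 CPM in NC lines, and 1 of 5 tested genes passed 0.05 (Pdgfrb, higher in BNC lines, adjusted p = 0.045). The member differences between genotypes described here stand beside these marker differences, whose part in them was not tested. Leukocyte RNA was nearly absent: the sum of 9 markers was 4.55 to 44.5 CPM in the lines, the highest being Lyz2 in JB81 and JB91 (37.3 and 41.3 CPM on the 6-line scale, adjusted p = 0.035 between genotypes), with Cd3e at 0 and Ptprc at 0.0824 CPM or less. Erythroid markers summed to 0.308 CPM or less, endothelial markers to 1.40 to 57.7 CPM, and markers of iron-recycling macrophages to between 3.004 and 211 CPM. The last 2 sums were higher in all NC lines, with 0 genes of either list past 0.05. Of the 6 macrophage markers, 4 stayed at or under 3 counts in every line and only 1, Vcam1, was tested. That sum therefore says little about such macrophages.

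At the study's cutoffs (adjusted p under 0.01 and more than 2-fold), edgeR's quasi-likelihood test called 0 of the 10 members between BNC and NC lines. It called 1.10% of the 12376 tested genes. The study itself applied its cutoffs to DESeq2, whose calls are given below. The direction was nevertheless uneven. At an adjusted p under 0.05, 5 members were lower in BNC lines and 0 were higher, while 8.45% of all tested genes were lower and 5.78% higher. Those 5 were Gclc, Gclm, Acsl4, Fth1, and Nfe2l2. The list counts at 0.05 given below stand against the same shares. In 6 members every BNC line lay below every NC line, which held for 21.4% of all genes, and in 0 members every BNC line lay above, which held for 20.1%. The median log2 fold change (BNC minus NC) was -0.89 over the members and -0.00 over all tested genes. At an unadjusted p under 0.05 there were 6 members, all lower, where 19.7% of all tested genes were lower and 35.6% passed in either direction. DESeq2, the study's own tool, called 2 of them at the study's threshold, Gclc and Gclm, where it called 9.03% of all genes lower. All 5 calls rest on counting the close lines as separate: with JB81 and JB91 summed and JB84 and JB93 summed, 0 members and 0 of 12859 genes passed 0.05. Leaving out JB81, JB91, JB84, or JB93 likewise left 0 members, with 15 to 54 genes in all.

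**Figure D1:**
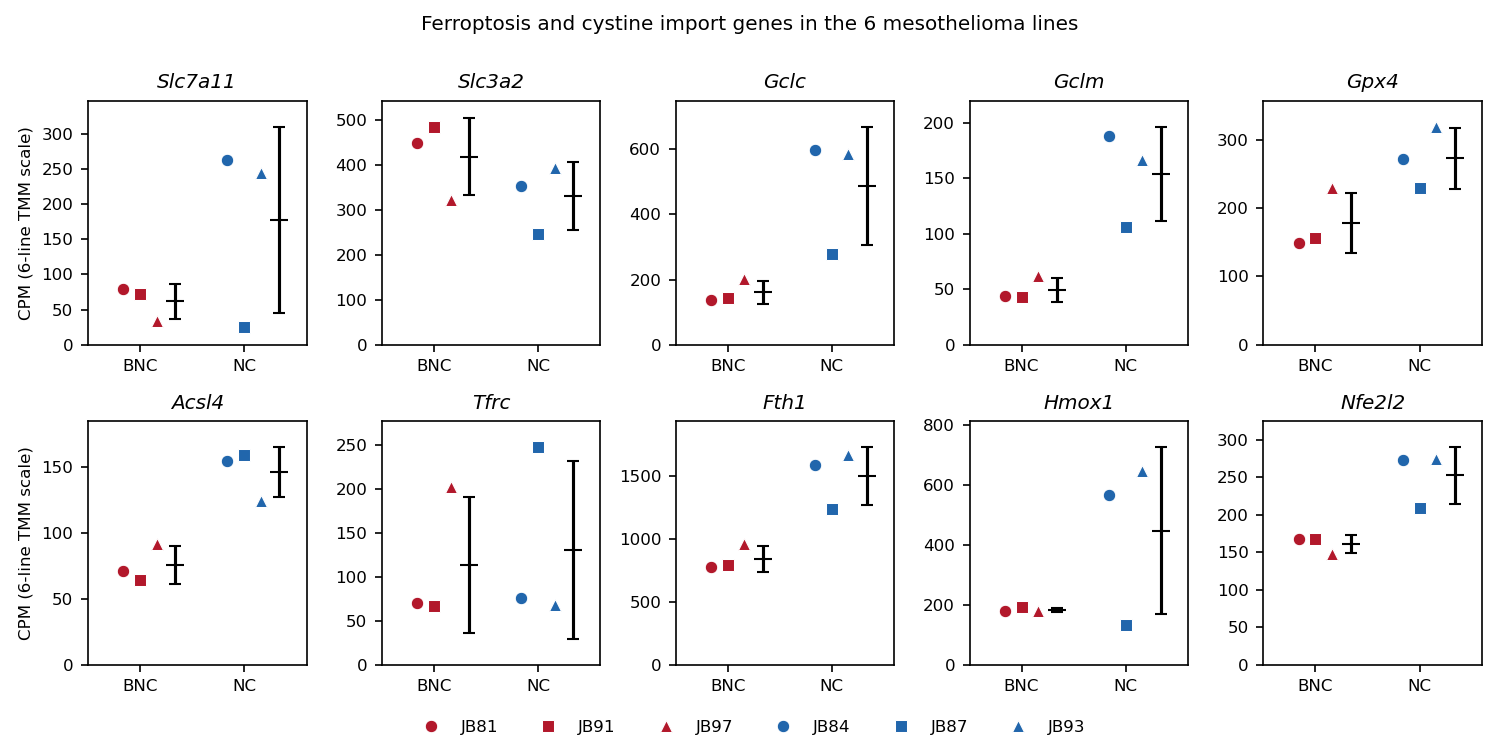
Normalized read count (CPM, TMM scale of the 6 lines, linear axis from 0) of the 10 members, with 1 symbol per line, BNC lines in red and NC lines in blue, and the group mean with SD beside the points. The BNC points of Gclc, Gclm, Gpx4, Acsl4, Fth1, and Nfe2l2 lie below all NC points, Slc7a11 and Hmox1 are high in JB84 and JB93 only, and Tfrc is high in JB97 and JB87.

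Slc7a11, the cystine-carrying subunit of the transporter (chromosome 3 of GRCm38, 49892526 to 50443614), did not separate the genotypes. Its BNC values were 79.8, 72.1, and 33.6 CPM (in the order JB81, JB91, JB97) and its NC values 263, 25.5, and 245 CPM (JB84, JB87, JB93). The lowest value of all belonged to an NC line, and the close NC pair was 9.97 times as high as JB87. The group means were 61.8 ± 24.7 CPM in BNC and 178 ± 132 CPM in NC lines (SD, n = 3 each), with a log2 fold change of -1.52 (SE 0.83, adjusted p = 0.23). Without JB87 the log2 fold change was -2.02 and passed 0.05 (adjusted p = 0.012). That fit compares the BNC lines with the close pair JB84 and JB93 alone, and 6800 of 13091 genes passed 0.05 in it. Under the replicate block, a covariate for the number in each line's supplementary column head, the log2 fold change was -0.21. JB93 alone bore its number, so in that fit only JB84 and JB87 informed the NC side. The library names carry 2 prefixes, whose meaning is not stated: within the set of JB81, JB84, and JB87 the log2(CPM + 1) difference was -0.05, and within the set of JB91, JB97, and JB93 it was -2.29. Slc7a11 RNA thus did not pass the test in either direction.

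The promoter of Slc7a11 is shown because it holds letters of the amino acid response element, to which ATF4 binds. In the RefSeq promoter table (GRCm38.p6, 250 bases before to 50 after the transcription start, with entries for 8 of the 10 members), the letters TTGCATCA or their reverse TGATGCAA occur in 0.895% of 32851 promoters. Among the members they were found in Slc7a11 alone, in 2 places, 66 to 59 and 47 to 40 bases before the start on opposite strands. The stretch at chr3:50443623-50443709 (minus strand) reads as follows, with both matches in capitals.
Slc7a11 promoter: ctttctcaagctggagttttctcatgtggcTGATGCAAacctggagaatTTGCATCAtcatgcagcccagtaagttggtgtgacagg

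Slc3a2 encodes the heavy chain that SLC7A11 shares with other amino acid transporters (chromosome 19, 8706882 to 8723369). It was the only member with a positive log2 fold change, 0.34 (SE 0.25, adjusted p = 0.35), and its groups overlapped. The BNC lines had 449, 484, and 321 CPM and the NC lines 352, 247, and 393 CPM, in the same order as above. Slc7a5, another light chain that pairs with SLC3A2 (named here after its values had been seen), was higher in BNC lines at 0.80 (SE 0.18, adjusted p = 0.041). The difference between the light chains was not tested. Of the 4 genes in the list of cystine import 0 passed 0.05. Cd44, whose variant forms hold SLC7A11 at the membrane, was above the NC range in every BNC line with a log2 fold change of 1.35 (SE 0.39, adjusted p = 0.068). It stood at 1033, 1005, and 491 CPM in the BNC lines against 260, 476, and 254 CPM in the NC lines, with JB97 and JB87 nearly level.

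Both subunits of glutamate-cysteine ligase were lower in BNC lines. Gclc (chromosome 9, 77754535 to 77794485) had 137, 143, and 202 CPM in the BNC lines against 598, 280, and 586 CPM in the NC lines. The groups did not overlap, and JB97 and JB87 stood nearest to each other. The means were 161 ± 35.7 and 488 ± 180 CPM (SD, n = 3 each), a log2 fold change of -1.60 (SE 0.34, adjusted p = 0.035; DESeq2 adjusted p = 0.00023). Gclm (chromosome 3, 122245557 to 122270732) had 43.4, 42.5, and 62.2 CPM in JB81, JB91, and JB97 and 188, 106, and 167 CPM in JB84, JB87, and JB93. Its means were 49.4 ± 11.1 and 154 ± 42.4 CPM, a log2 fold change of -1.64 (SE 0.28, adjusted p = 0.021; DESeq2 adjusted p = 5.5e-06). Within the sets of libraries the differences were -1.57 and -1.78 for Gclc and -1.68 and -1.68 for Gclm. Each close pair is split across these sets, so such differences are not independent of each other, here and for the members below. Their sizes stayed between -1.86 and -1.33 for Gclc and between -1.83 and -1.42 for Gclm over 14 alternatives, but each passed 0.05 in 7 of the 14.

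The antioxidant response core, to which NRF2 binds with a small MAF protein, was searched as TGACNNNGC and its reverse GCNNNGTCA, which occur in 12.4% of the RefSeq promoters. Among the members Gclm held 1 match, 134 to 126 bases before the start on the minus strand, and Nfe2l2 held 1, 240 to 232 bases before the start. Gclc and Hmox1 had no promoter entry and were not searched. The windows are chr3:122245393-122245461 (plus strand) and chr2:75704865-75704913 (minus strand), with the match in capitals.
Gclm promoter: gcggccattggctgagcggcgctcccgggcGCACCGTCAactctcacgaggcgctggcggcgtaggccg
Nfe2l2 promoter: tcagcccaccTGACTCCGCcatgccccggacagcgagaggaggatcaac

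Of 13 tested genes of glutathione synthesis and turnover, 4 were lower in BNC lines (Gclc, Gclm, Ggct, and Gls2) and 0 were higher, with a list median of -0.45. Ggct and Gls2, chosen for mention once their values were known, are low genes (at most 14.5 CPM in any line). Gsr, which regenerates reduced glutathione, had a log2 fold change of -1.12 (SE 0.30, adjusted p = 0.058) with no overlap between the groups. Chac1, which degrades glutathione and is a target of ATF4, had 0.84 (SE 0.30, adjusted p = 0.10).

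Gpx4, the selenoenzyme that reduces lipid peroxides in membranes (chromosome 10, 80047166 to 80056439), was read at 149, 157, and 229 CPM in JB81, JB91, and JB97 and at 271, 230, and 319 CPM in JB84, JB87, and JB93. The groups did not overlap, but JB97 and JB87 were separated by less than 1 CPM. The log2 fold change was -0.62 (SE 0.23, adjusted p = 0.11), and within-library-set differences were -0.74 and -0.75. Without JB97 the log2 fold change became -0.83 and passed 0.05 (adjusted p = 0.035). In that fit the close pair JB81 and JB91 were the only BNC lines, and 3305 of 12991 genes passed 0.05. Of the 16 genes of GPX4 and selenoprotein synthesis 1 passed 0.05, Sephs1, a selenophosphate synthetase family member named after its value had been seen, which was higher in BNC lines (0.83, SE 0.19, adjusted p = 0.042). Txnrd1, the cytosolic thioredoxin reductase and an NRF2 target, had 355, 363, and 545 CPM in the BNC lines and 1535, 514, and 1571 CPM in the NC lines. Its log2 fold change was -1.52 (SE 0.46, adjusted p = 0.075), and JB87 lay within the BNC range.

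Among 15 genes of the defenses that work beside GPX4, 2 were lower in BNC lines and 0 higher. The shares over all tested genes were 8.45% and 5.78%. Aifm2, which encodes FSP1, the enzyme that regenerates ubiquinol at membranes, stood at 5.71, 6.32, and 6.96 CPM in JB81, JB91, and JB97 and at 32.1, 17.9, and 34.0 CPM in JB84, JB87, and JB93. The change of -2.14 (SE 0.30, adjusted p = 0.014) passed 0.05 but not 0.01 by edgeR. Nqo1, a quinone reductase and a standard target of NRF2, fell by 2.31 on the log2 scale (SE 0.34, adjusted p = 0.016), from 36.9 to 84.3 CPM in the NC lines to 12.5 to 14.2 CPM in the BNC lines. Of this list 1 gene passed 0.05 with the library set as a covariate, and 0 did with the replicate block, with the close lines summed, or without JB81, JB91, JB84, or JB93.

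Acsl4, the acyl-CoA synthetase that activates arachidonic acid for membrane lipids (chromosome X, 142317993 to 142390535), was lower in BNC lines. It was read at 71.2, 64.9, and 91.8 CPM in JB81, JB91, and JB97 and at 155, 159, and 125 CPM in JB84, JB87, and JB93. In this member JB87 stood with the other NC lines and was the highest of all. The log2 fold change was -0.95 (SE 0.19, adjusted p = 0.030; DESeq2 adjusted p = 0.00024), and the within-library-set differences were -1.13 and -0.68. Of 16 tested genes of the lipid list, 2 were lower (Acsl4 and Por, a reductase named after its value had been seen, -1.67, SE 0.30, adjusted p = 0.023) and 0 higher. Among all tested genes these shares were 8.45% and 5.78%. Acsl3, which activates monounsaturated fatty acids, had 0.12 (SE 0.22, adjusted p = 0.71), and Lpcat3, which inserts polyunsaturated chains into phospholipids, 0.32 (SE 0.26, adjusted p = 0.41). All 5 lipoxygenase genes of the list stayed at 2.07 CPM or less in every line and were not tested. In the list of the Hippo arm, in which YAP and TAZ are held to raise Acsl4 and Tfrc, 2 of 11 tested genes were lower (Acsl4 and Emp1, the latter chosen once its value was known) and 0 higher, and Yap1 itself had -0.29 (SE 0.17, adjusted p = 0.26). Ctgf and Cyr61, also on that list, were not found under these names, so their levels were not read.

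**Figure D2:**
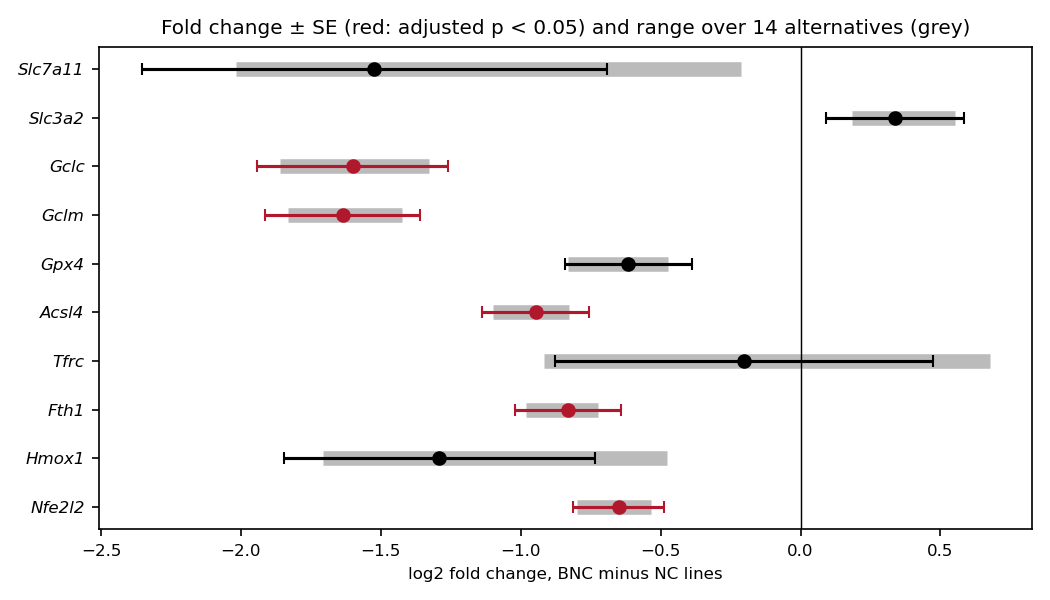
Log2 fold change of BNC minus NC lines for each member (points, with SE; red where the adjusted p was under 0.05) and the range over 14 alternative analyses (grey bars). Gclc, Gclm, Gpx4, Acsl4, Fth1, and Nfe2l2 stayed negative in all 14, as did Slc7a11 and Hmox1 with wide bars, and only the bar of Tfrc crosses 0.

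The iron members fell into separate patterns. Tfrc, the transferrin receptor (chromosome 16, 32608920 to 32632794), was high in JB97 (202 CPM) and JB87 (247 CPM) and low in JB81, JB91, JB84, and JB93 (70.3, 67.1, 75.5, and 68.4 CPM). The high and low lines came from both genotypes, so the log2 fold change of -0.20 (SE 0.68, adjusted p = 0.85) described neither. It changed sign when JB81 (0.06), JB91 (0.08), or JB87 (0.68) was left out.

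Tfrc and Fth1 are known for the iron-responsive elements in their untranslated regions, hairpins bound by iron regulatory proteins: bound in Tfrc they stabilize the messenger RNA, and bound in Fth1 they block its translation, which read counts do not show. The elements are printed to show what the genes share. They were searched in GENCODE M21 transcripts as an unpaired C, a stem of 5 pairs (G with T allowed), and the loop CAGTGN with a last base other than G, a form found in 1.01% of 21901 protein-coding genes. Tfrc was the only gene with 4 or more in 1 transcript, and of the other 9 members, searched in 1 transcript each, only Fth1 held any. Positions are chr16:32631219-32631247, chr16:32631598-32631626, chr16:32631663-32631691, and chr16:32631710-32631738 in the 3′ untranslated region of Tfrc and chr19:9982732-9982760 in the 5′ untranslated region of Fth1, all on the plus strand of GRCm38, with the loop in capitals.
Fth1: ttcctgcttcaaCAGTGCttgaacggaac
Tfrc element 1: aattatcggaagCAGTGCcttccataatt
Tfrc element 2: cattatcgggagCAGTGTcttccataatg
Tfrc element 3: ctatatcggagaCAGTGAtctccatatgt
Tfrc element 4: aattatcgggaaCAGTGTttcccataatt

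Fth1, the heavy chain of ferritin with ferroxidase activity (chromosome 19, 9980598 to 9985098), was lower in BNC lines. It was read at 774, 791, and 960 CPM in JB81, JB91, and JB97 and at 1586, 1239, and 1668 CPM in JB84, JB87, and JB93, with no overlap. The means were 842 ± 103 and 1498 ± 228 CPM (SD, n = 3 each), a log2 fold change of -0.83 (SE 0.19, adjusted p = 0.040; DESeq2 adjusted p = 0.00057), and within the library sets -0.86 and -0.94. Ftl1, the light chain, did not follow at the threshold (-0.39, SE 0.25, adjusted p = 0.30), and JB87 was the lowest of all lines at 937 CPM. Ferritin genes have near-identical processed copies, so their counts are uncertain in so far as reads mapping to several places were discarded.

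Hmox1, which opens heme and frees its iron (chromosome 8, 75093621 to 75100589), resembled Slc7a11. The BNC lines were close together at 179, 192, and 179 CPM, and the NC lines were spread over 567, 132, and 647 CPM (JB84, JB87, and JB93). JB87 was again below every BNC line, and the log2 fold change was -1.29 (SE 0.56, adjusted p = 0.15). Without JB87, with the close pair as the only NC lines, it was -1.71 (adjusted p = 0.00078), where 6800 of 13091 genes passed 0.05. Slc40a1, the iron exporter ferroportin, showed the same contrast within the NC group more sharply. It had 53.2 and 54.6 CPM in JB84 and JB93 but 2.14 CPM in JB87 and 2.52 to 3.37 CPM in the BNC lines, a log2 fold change of -3.69 (SE 1.09, adjusted p = 0.070). JB87 thus lay below every BNC line. Of 25 tested genes of iron handling 1 passed 0.05, Fth1. Ireb2, an iron regulatory protein, had 0.14 (SE 0.12, adjusted p = 0.44), and Ncoa4, which takes ferritin to autophagy, -0.33 (SE 0.20, adjusted p = 0.28).

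Nfe2l2, which encodes NRF2 (chromosome 2, 75675513 to 75704641), was read at 168, 168, and 147 CPM in JB81, JB91, and JB97 and at 274, 209, and 275 CPM in JB84, JB87, and JB93. The groups did not overlap, and the log2 fold change was -0.65 (SE 0.16, adjusted p = 0.0496), just inside the 0.05 threshold. It passed that threshold in 3 of 14 alternatives. Keap1, whose product marks NRF2 for degradation, had 0.15 (SE 0.16, adjusted p = 0.52), and Bach1, a repressor of the same sites, -0.87 (SE 0.37, adjusted p = 0.15).

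In the list of NRF2 control and targets, 8 of 31 genes were lower in BNC lines and 0 were higher. Beside the 4 members Gclc, Gclm, Fth1, and Nfe2l2, these were Nqo1 and, chosen once their values were known, Taldo1 and Pgd of the pentose phosphate pathway and the transporter gene Abcc4. In 12 genes every BNC line was below every NC line and in 0 above, which held for 21.4% and 20.1% of all tested genes. The list median was -0.83, and -0.71 over the 25 genes that are not members. With the close lines summed 0 genes of the list passed 0.05, and by DESeq2 13 were lower. Srxn1, which restores oxidized peroxiredoxins, had -1.46 (SE 0.47, adjusted p = 0.087), with 94.5 CPM in JB87 against 310 and 316 CPM in JB84 and JB93. In 11 of the 31 genes, including Slc7a11, Gclc, Hmox1, Txnrd1, and Srxn1, both JB84 and JB93 were more than 2-fold above JB87, which held for 11.2% of all tested genes.

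Of the 22 genes in the list of ATF4 control and targets, which also contains Slc7a11, 3 were higher in BNC lines (Ddit3, Mthfd2, and Slc7a5, chosen for mention once their values were known) and 0 lower, 10 had a negative log2 fold change, and the median was 0.04. Atf4 itself, read at 490 to 580 CPM in BNC and 319 to 388 CPM in NC lines, had 0.59 (SE 0.15, adjusted p = 0.052). On library size alone 0 genes of this list passed 0.05 and its median was -0.10, with no filter on low counts or with the close lines summed 0 passed, and without JB87 7 were lower and 8 higher. In the list of the p53 and polyamine arm, 4 of 9 genes were lower (Cdkn1a, Mdm2, Gls2, and Dpp4, likewise chosen) and 0 higher, Dpp4 being at 1.42 CPM or less in every line. Cdkn1a and Mdm2 are standard p53 targets. Trp53, also chosen once its value was known, had 0.32 (SE 0.42, adjusted p = 0.60).

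**Figure D3:**
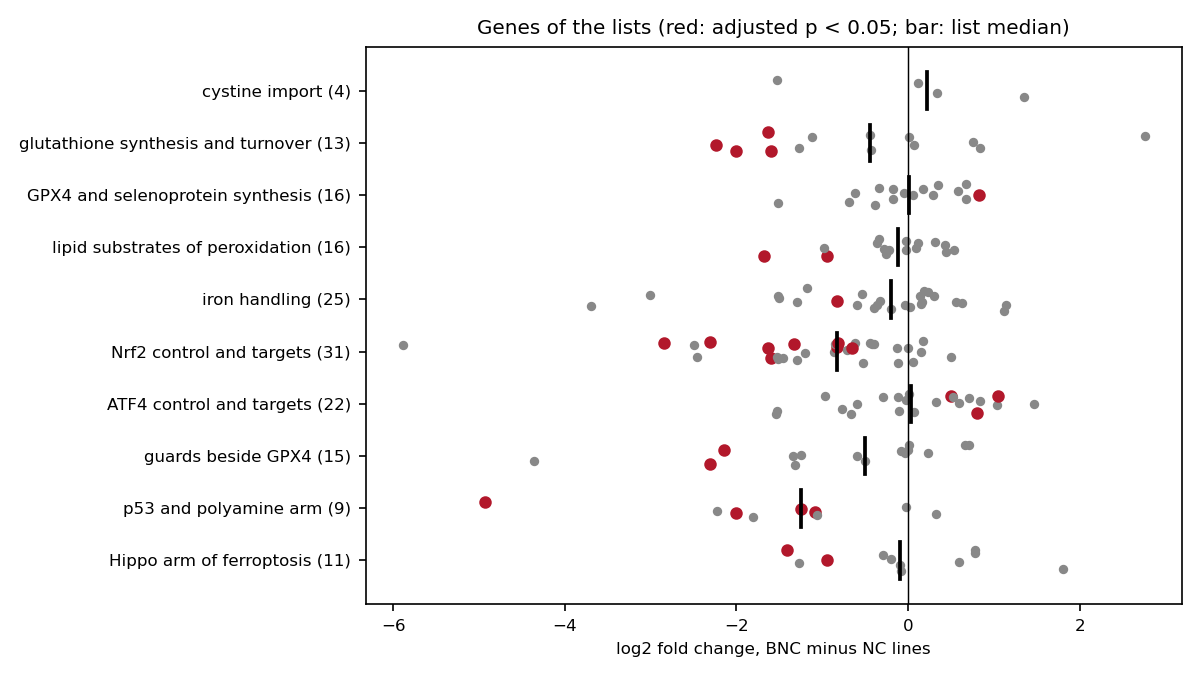
Log2 fold change (BNC minus NC lines) of every tested gene of 10 lists, with the number tested in brackets, list medians as black bars, and genes with an adjusted p under 0.05 in red. Red points lie right of 0 in the ATF4 list (3 genes) and the selenoprotein list (1 gene) and left of 0 in the others that have any.

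Over the 17 pathway neighbours chosen by name, 2 were lower at 0.05 (Nqo1 and Aifm2), 0 were higher, and the median was -0.33. Of all tested genes, 8.45% were lower and 5.78% higher. The position of JB87 differed between genes. It stood with the NC pair in Acsl4 and Gsr and with the BNC lines in Slc7a11, Hmox1, Slc40a1, Txnrd1, Srxn1, and Bach1, and it lay between them in Gclc, Gclm, Nqo1, and Aifm2. The close NC pair was 3.68 times the BNC mean in Gclc and JB87 was 1.74 times that mean. In Gclm these ratios were 3.59 and 2.15, and in Slc7a11 4.11 and 0.412.

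**Figure D4:**
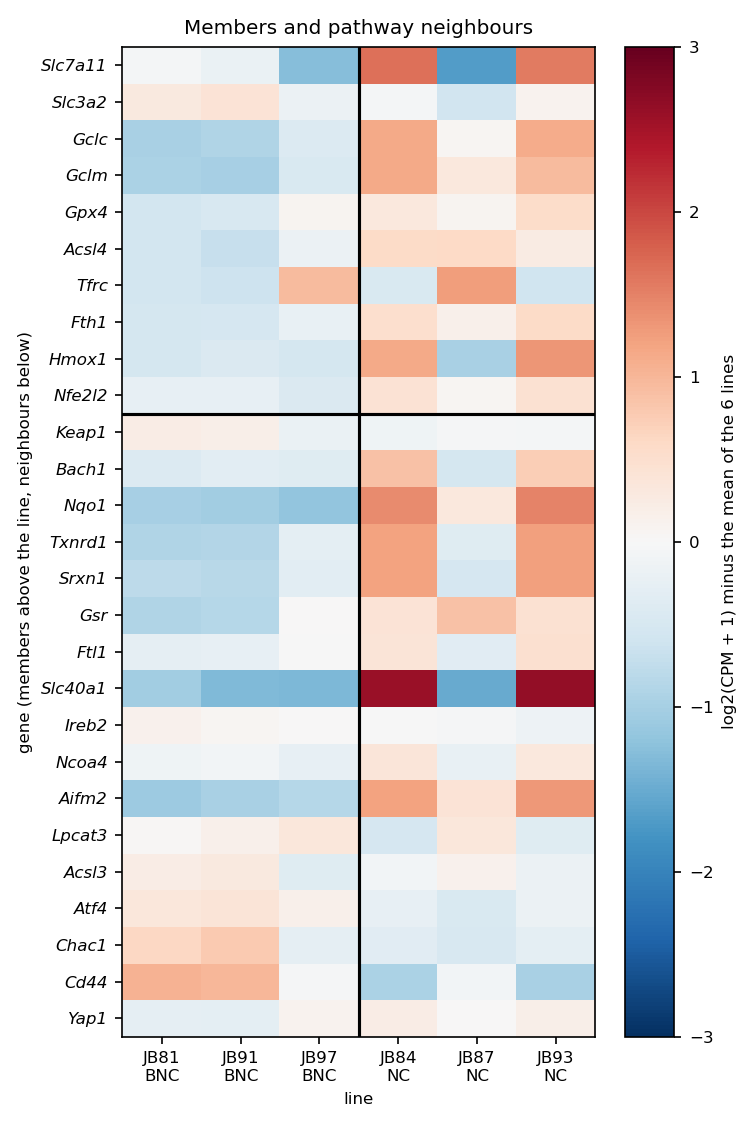
Heat map of log2(CPM + 1) minus the mean of the 6 lines, for the 10 members (above the black line) and 17 neighbours (below it), with BNC lines left and NC lines right. JB84 and JB93 are red in most members, JB87 is blue in Slc7a11 (25.5 CPM), Hmox1 (132 CPM), and Slc40a1 (2.14 CPM), and Tfrc is red in JB97 and JB87.

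Per kilobase of merged exon, which allows levels to be compared between genes, Fth1 was the highest member in both groups (243 CPM per kilobase in BNC and 432 in NC lines, as means of 3). In BNC lines Slc3a2 (118.5), Hmox1 (105), and Gpx4 (103) followed, with ranges over the lines that overlapped. In NC lines Hmox1 (256), Gpx4 (159), and Gclc (130) came next, and JB87 had only 75.2 of Hmox1 and 74.3 of Gclc. Slc7a11 was the lowest member in both groups, at 4.44 and 12.8. It thus stood far under its partner Slc3a2 on this scale, 118.5 and 93.7, although its annotated exons, 13.9 kilobases in all, make the divisor long.

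In the 9 tumors the levels are given on a TMM scale over all 15 libraries and only as a description, because tumors and lines differ in material and library set together and the tumors' genotype was not assigned. Tumors hold other cells: leukocyte markers summed to 792 to 5790 CPM and erythroid markers to 4.76 to 1941 CPM, against 44.5 and 0.308 CPM at most in the lines. Fewer cells of a type and less RNA per cell cannot be told apart in such bulk samples. In 2 of the 10 members, Gclc and Gclm, all tumors lay below all lines, as in 9.59% of 14383 genes, and in 0 members all tumors lay above, as in 16.8%. Gclc was 11.3 to 47.5 CPM (median 19.002) in tumors and 128 to 557 CPM in lines. Gclm was 17.7 to 30.1 CPM (median 23.5) in tumors and 39.5 to 175 CPM in lines.

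Slc7a11 was nearly absent from 8 tumors. Its level ran from 0.277 to 5.49 CPM there, with 2 to 95 counts, against 23.8 to 245 CPM in the lines, and 1 tumor, B1, had only 2 counts, which lies under the floor of 3 counts. The exception was tumor B27 with 204.7 CPM, or 4462 counts. Hmox1 behaved alike, at 35.3 to 103 CPM in 8 tumors and 519.5 CPM in B27, and so did Fth1, at 905 to 3654 CPM in 8 tumors and 11102 CPM in B27. Slc3a2 was also highest in B27 (293 CPM against 61.3 to 190 CPM), and Gclc was lowest there (11.3 CPM). By its ratio to the median of the other tumors Slc7a11 in B27 ranked 14 of 14383 genes, Hmox1 154, and Fth1 278. Without B27, Slc7a11, Slc3a2, and Hmox1 join Gclc and Gclm, and 5 members lie below all lines, as do 10.2% of all genes. B27 also held 11042 CPM of 7 neutrophil and inflammation genes chosen after the values were seen, with 2970 CPM of S100a9 and 4066 CPM of Il1b, where the other tumors had 17.9 to 194 CPM in sum. By the fixed lists, B27 had the highest fibroblast (20395 CPM) and endothelial (669 CPM) sums of the tumors. It had the lowest mesothelial (788 CPM) and iron-recycling macrophage (337 CPM) sums. Its leukocyte sum of 3839 CPM lay within the range of the other tumors (792 to 5790 CPM). The part of any cell type in the levels of B27 was not tested.

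The remaining members overlapped between lines and tumors. Gpx4 was 157 to 2057 CPM (median 395) in tumors and 139 to 299 CPM in lines, with 6 of 9 tumors above every line. Its highest tumors were B1 (2057 CPM) and B19 (1143 CPM), which also had the highest sums of 7 heart muscle genes chosen after the values were seen (8811 and 9884 CPM). B45, with the next heart sum (5988 CPM), had 361 CPM of Gpx4. The 3 tumors highest in Gpx4, B1, B19, and B2 (698 CPM), were also the 3 highest in erythroid markers (1058, 787, and 1941 CPM in sum), and the part of either tissue was not tested. B1 stood apart by a TMM factor of 0.422, where the other tumors had 0.844 to 1.20, and on library size alone its Gpx4 was 868 CPM. Acsl4 was 34.6 to 489 CPM (median 101) in tumors, highest in B28 (489 CPM) and in the tumor without a number (387 CPM), against 60.2 to 149 CPM in lines. Its lowest value was that of B1, and without B1 the lowest was 67.5 CPM. Tfrc was 49.2 to 90.8 CPM in tumors, with 7 of 9 below all lines, and on library size alone 21.8 CPM (B1) to 93.1 CPM. Nfe2l2 was 88.9 to 261 CPM in tumors and 143 to 258 CPM in lines. Of the 17 neighbours, 4 were also below every line in all 9 tumors, as were 9.59% of 14383 genes. These were Txnrd1 (at most 187 CPM, lowest line 330 CPM), Ireb2 (at most 116 CPM, lowest line 119.2 CPM), Yap1 (at most 118.5 CPM, lowest line 147 CPM), and Acsl3 (at most 39.2 CPM, lowest line 40.3 CPM).

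**Figure D5:**
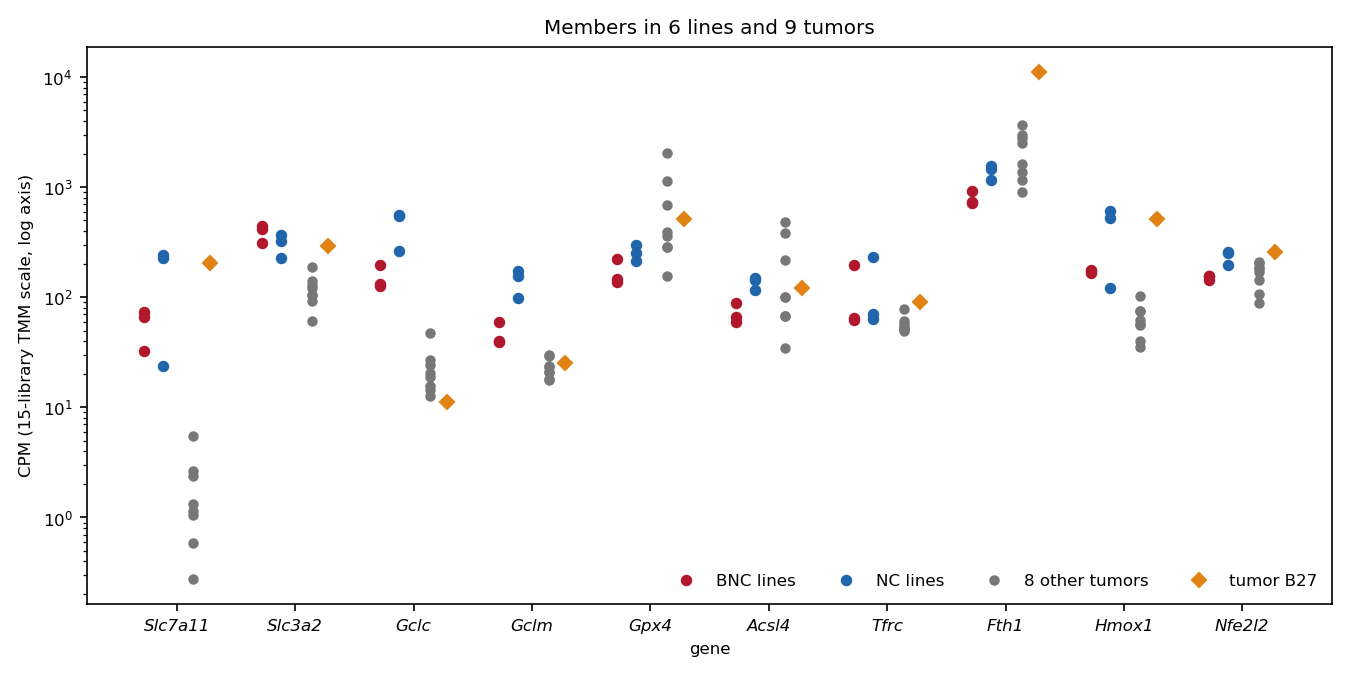
CPM (TMM scale of all 15 libraries, log axis) of the members in BNC lines (red), NC lines (blue), tumor B27 (orange diamonds), and the 8 other tumors (grey). Gclc and Gclm lie below every line in all 9 tumors, and in B27 Slc7a11 (204.7 CPM), Hmox1 (519.5 CPM), and Fth1 (11102 CPM) lie far above the other tumors.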

How the data were processed

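The authors deposited whole-number read counts per Ensembl gene for 15 RNA libraries (27197 genes). Per the paper's methods and the labels, poly-A-enriched TruSeq libraries were read as 65-base single ends, mapped to mm10 with TopHat (TopHat2 2.0.12 in the submitters' processing notes), filtered for mapping quality and nonprimary alignments, and counted with HTSeq-count. The strand setting is not given in the sources used here. Lines were assigned by the names in the study's supplementary column heads. The 9 other libraries were taken as the tumors and stay without genotype. The 14 DNA columns were not used.

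The members and lists were chosen with earlier results of these data known. All genes of the 6 lines were fitted together in R 4.3.3 with edgeR 4.0.16 (filterByExpr with minimum count 10, TMM, glmQLFit, glmQLFTest, no covariates, Benjamini-Hochberg over 12376 genes). DESeq2 1.42.0 was an alternative, and the study also used DESeq2. The SE is the log2 fold change divided by the square root of F. Within-library-set differences use a pseudocount of 1. Genes named were the 10 members, the targeted genes, and 17 neighbours. List genes called by edgeR at adjusted p under 0.01 and 2-fold were also to be named, and there were none. Cell type markers from fixed lists are named as checks, those given singly being chosen once their values were known. Other pathway genes are marked where named. Lists held 226 entries, of which 223 were found. Promoters are from RefSeq and transcripts and lengths from GENCODE M21 (both GRCm38). Fits were tested on simulated counts in which the 6 lines were independent. That simulation held no near-identical lines, so it cannot show the error rates of this design. Figures used Python 3.11.15 and matplotlib 3.10.9.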

Additional observations from a re-analysis of the deposited data

Results flagged for a closer look

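Among the 9 tumors, 4 levels stood apart by Dixon's test at its 95% critical value, a test that chance passes for about 1 in 20 groups. Tumor B27 had 204.7 CPM of Slc7a11, where the next tumor had 5.49 CPM, 11102 CPM of Fth1, where the next had 3654 CPM, and 519.5 CPM of Hmox1, where the next had 103 CPM. Tumor B2 had 47.5 CPM of Gclc, where the next had 27.2 CPM. On the log2 scale the gap ratio was 0.680 for Slc7a11 and 0.603 for Hmox1, still above the critical value, and 0.443 for Fth1 and 0.395 for Gclc, below it. The genotype of both tumors is unassigned.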

How the results depend on the processing

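The count of members called at adjusted p under 0.01 and 2-fold was 0, and 2 with DESeq2, 5 at adjusted p under 0.05 with any fold, and 0 to 3 when 1 line was left out (3 without JB87: Gclc, Gclm, and Hmox1). The 5 members lower at 0.05 became 3 without a filter on low counts, 0 with the replicate block, 0 with the library set as a covariate, 0 with the close lines summed, and 0 to 7 when 1 line was left out, with 0 in each of the fits without JB81, JB91, JB84, or JB93. The 7 lower and the 3 called members came without JB87, where 3337 of 13091 genes were lower at 0.05 and 2574 were called. In the 7 fits with 0 members, 0 to 272 of all genes passed. For lines that share a number between groups, deviations from the group means correlated at 0.101 for JB81 and JB84, -0.0689 for JB91 and JB87, and 0.0817 for JB97 and JB87. The close lines tie these values to each other up to their sign. They therefore cannot show whether the numbers, which the replicate block uses, pair the lines. The log2 fold change of Tfrc ran from -0.92 to 0.68 when 1 line was left out and was positive without JB81 (0.06), JB91 (0.08), or JB87 (0.68). The other 9 members kept their direction in all 14 alternatives. Library size alone shifted the median of all genes to -0.14, and the member median lay 0.89 under it. The count of members with all tumors below all lines was 2 to 5 when 1 library was left out, 5 without B27. The alternatives for the count of lower members and for the lists, and leaving out each library for the tumors, were chosen after seeing the data.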
